A study of Mus musculus with 8 samples.

Results

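The 10 genes described here are Cdkn1c and 9 other imprinted genes that act on growth, namely Mest, Peg3, Plagl1, Grb10, Igf2, H19, Meg3, Dlk1 and Ndn, out of 56953 genes in the count table of brown adipose tissue (BAT). They were found by their gene names. Cdkn1c was chosen by its lower level in the cachectic group in these same libraries, so its difference is a description and carries no test, whereas the other 9 were chosen as imprinted genes. All 10 were in the table, and 6 of them, Cdkn1c, Peg3, Grb10, H19, Meg3 and Ndn, had enough reads to pass the filter on low counts.

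Imprinted genes are read mainly from the copy inherited from one parent, and which copy is read goes back to DNA methylation set in the egg or the sperm at control regions. Many of them control growth before birth, are strongly expressed in the fetus and decline afterwards. Paternally expressed Igf2 is a growth factor, and maternally expressed Cdkn1c and Grb10 restrain division and growth factor signalling. In fat, Dlk1 and Ndn are known to hold back the differentiation of precursors, and Mest is known to follow the expansion of fat mass.

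The study compared the BAT of mice without a tumour (CTR) with that of mice with cancer cachexia (CAC), and asked which genes differ. CAC mice received 3000000 cells of LLC, the Lewis lung carcinoma line, under the skin of the right flank, and CTR mice received only PBS, the carrier. All were wild-type C57BL/6J mice, male or female, kept at 21 °C, and the sex of each mouse is not given by the labels. They were 8 to 10 weeks old when divided into the groups, and body weight and tumour size were followed after the injection. Each group had 4 mice with 1 library each, CAC rests on 1 transplanted tumour line, and the BAT was sequenced as whole tissue.

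The libraries held 1823167 to 4827956 counts, of which 28.5% to 33.8% lay on mitochondrially encoded genes. Levels are given as CPM, in which TMM scaling puts all libraries on one size, and, as they are not scaled by gene length, they do not rank genes by expression. A count of 0 allows up to 3 counts, which correspond here to 0.661 to 1.62 CPM, and limits and intervals on counts cover counting error only. All 11 brown adipocyte markers, Ucp1 among them, passed the filter, and their summed level was 11696 to 13903 CPM in CTR and 11516 to 15093 CPM in CAC. Within this list Ppargc1a was called higher in CAC (log2 fold change 0.73, edgeR adjusted p = 0.0201), and Cox8b and Cox7a1 (both −0.22) were lower in every CAC library than in any CTR library without being called. Of all genes tested, 0.932% were called by edgeR and 7.04% had groups that did not overlap, which is the background for each marker list here. Adipocyte, progenitor, endothelial, smooth muscle and Schwann cell markers, with 8, 9, 10, 10 and 4 genes tested, also overlapped between the groups in their summed levels. Of their members, Ly6a (1.02, edgeR adjusted p = 0.000238) and Esam (0.62, 0.0201) were called higher in CAC on the log2 scale, and 5 tested members stood apart between the groups without being called. These were Cd34 (0.69), Tagln (0.45) and Cnn1 (0.67), higher in CAC, and Pdgfrb (−0.67) and Plin1 (−0.27), lower in CAC, so the progenitor markers Ly6a, Cd34 and Pdgfrb held both directions. Summed neutrophil markers were 11.5 to 15.2 CPM in CTR and 173 to 441 CPM in CAC. Of the 4 tested, 3, S100a8, S100a9 and Retnlg, were called higher by edgeR. Of the mean sum of 276 CPM in CAC, S100a8 held 175 CPM and S100a9 73.5 CPM. The study places S100A9 protein in brown adipocytes and reports no significant difference in CD45+ cell or neutrophil counts. Summed macrophage markers were 209 to 235 CPM in CTR and 290 to 410 CPM in CAC, with 2 of the 8 tested, C1qa and C1qb, called higher. All 6 erythrocyte markers had higher mean levels in CAC and 1, Slc4a1, was called, with sums of 6180 to 19268 CPM in CTR and 14636 to 44326 CPM in CAC. The part of these cells in the differences below was not tested. In whole tissue, fewer cells of a type and less RNA per cell cannot be told apart.

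Cdkn1c encodes p57Kip2, an inhibitor of cyclin-dependent kinases (CDKs) of the Cip/Kip family that is expressed from the maternal allele. The gene (ENSMUSG00000037664.14) lies on the minus strand at chr7:143458339-143461050 of GRCm38. The first 120 coding bases of its transcript Cdkn1c-201 in GENCODE M21 are shown because this gene has the largest difference of the 10. The capitals mark the start codon, at chr7:143460666-143460668, and the coding sequence of 335 codons has a GC content of 69.1%.
Cdkn1c: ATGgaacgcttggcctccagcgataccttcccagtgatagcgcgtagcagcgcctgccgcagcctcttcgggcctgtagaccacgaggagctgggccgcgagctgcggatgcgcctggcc

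Cdkn1c was lower in every CAC library than in every CTR library. The CTR libraries held 102, 111, 99 and 186 counts and the CAC libraries 26, 20, 62 and 49. On the CPM scale these were 36.7, 29.6, 41.1 and 41.0 in CTR and 14.1, 10.6, 18.2 and 17.1 in CAC. The lowest CTR library thus stood above the highest CAC library, and the levels within each group lay close together. CTR averaged 37.1 ± 5.42 CPM and CAC 15.0 ± 3.38 CPM (SD, n = 4 each). The fold change fitted by edgeR was −1.26 on the log2 scale with a standard error of 0.17, or 2.40 times lower. The 95% interval of that factor was 1.88 to 3.07.

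Among the 18 genes called lower in CAC whose groups stood apart and whose mean level was 5 CPM or more, Cdkn1c ranked 3 by the size of its difference. Cdkn1c was chosen by its fall in these same libraries, so its place in this list is a description and no test. Unc5b and Gnb2 stood before it with log2 fold changes of −1.54 and −1.37, and Pmpcb followed directly with −1.26. The antisense gene Gm44732 covers 22.1% of the 75-base stretches of Cdkn1c transcripts, and it held 0 counts in all 8 libraries. No library held a fraction of a read on Cdkn1c.

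**Figure D1:**
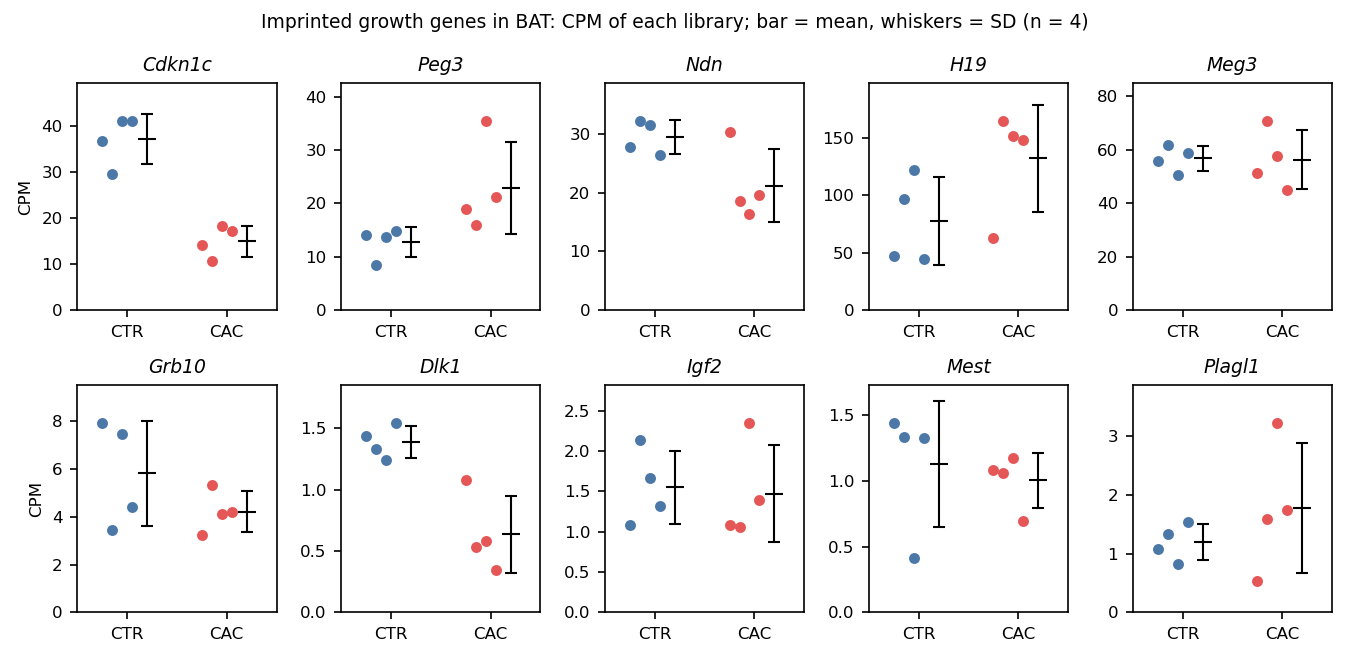
Level of each of the 10 imprinted genes in CPM on the vertical axis, with its own scale, in the 4 CTR (blue) and 4 CAC (red) libraries. Each point is 1 library, the bar is the mean and the whiskers are the SD. Cdkn1c and Dlk1 were lower and Peg3 was higher in all 4 CAC libraries than in any CTR library, and the groups overlapped for the other 7 genes.

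Of the 9 other genes, 5 could be tested across all genes and 0 had an adjusted p under 0.05 in edgeR's quasi-likelihood test, while 0.932% of the 9876 genes tested did. DESeq2 and limma-trend also called 0 of them. With an unadjusted p under 0.05, Peg3 and Ndn differed, 2 of the 5, against 12.9% of all genes tested. Peg3 was the only 1 of the 5 whose groups did not overlap, as was so for 7.04% of all genes tested. The members thus held both directions, with Peg3 and H19 at higher mean levels in CAC and Ndn, Grb10 and Meg3 at lower mean levels.

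The ligands, Igf2 and Dlk1, were both near the limit of detection. Igf2 (ENSMUSG00000048583.17, minus strand, chr7:142650766-142666816) encodes insulin-like growth factor 2, the fetal ligand of the IGF receptors. Its counts, with fractions of shared reads, were 3, 8.5, 4.5 and 5.5 in CTR and 2, 1.5, 8 and 3.5 in CAC. The groups overlapped, with 1.55 ± 0.46 CPM (SD, n = 4) in CTR and 1.47 ± 0.60 CPM in CAC, and the exact two-sided permutation test gave p = 0.80. The ratio of the count rates, CAC over CTR, was 1.03 with a 95% counting interval of 0.50 to 2.06. Igf2 shares 60.3% of its 75-base stretches with the overlapping gene Gm49394, whose counts were identical to those of Igf2 in all 8 libraries, so the reads of these genes cannot be told apart. The counting interval takes the rounded shares of Igf2 as whole reads, so it is only approximate.

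Dlk1 (ENSMUSG00000040856.18, plus strand, chr12:109452823-109463336) encodes Pref-1, a transmembrane and shed protein of the Delta family that marks preadipocytes. It held 4, 5, 3 and 7 counts in CTR and 2, 1, 2 and 1 in CAC. Every CAC library lay below every CTR library, at 0.637 ± 0.31 CPM (SD, n = 4) against 1.39 ± 0.13 CPM. The exact two-sided permutation test gave p = 0.0286, the smallest that 4 libraries against 4 can give. All 4 CAC counts were under 3, and the ratio of the count rates was 0.425 with a 95% counting interval of 0.139 to 1.11, which includes 1. When Dlk1 was kept in the fit without a filter on low counts, edgeR's adjusted p was 0.620.

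Grb10 (ENSMUSG00000020176.18, minus strand, chr11:11930508-12038683) encodes an adaptor that binds the insulin and IGF receptors and dampens their signals. Its level was 7.92, 3.46, 7.47 and 4.41 CPM in CTR and 3.24, 5.32, 4.10 and 4.18 CPM in CAC. CTR split into a higher and a lower pair of libraries, and the lower pair lay within the range of CAC. The log2 fold change was −0.40 with a standard error of 0.32 and a 95% interval of −1.07 to 0.27 (edgeR adjusted p = 0.654), so a difference of either sign lies within the error.

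Mest (ENSMUSG00000051855.16, plus strand, chr6:30723547-30748465) encodes a membrane protein of the alpha/beta hydrolase family, and its expression in fat tracks the gain of fat mass. Its counts were 4, 5, 1 and 5.5 in CTR and 1.5, 2.5, 4.5 and 1.5 in CAC, so the gene was barely detected in BAT of either group. The level was 1.13 ± 0.48 CPM (SD, n = 4) in CTR and 1.00 ± 0.21 CPM in CAC, and the exact two-sided permutation test gave p = 0.686. The ratio of count rates of 0.841 had a 95% counting interval of 0.341 to 1.97, so a difference within those bounds was not detectable at this depth. The log2 ratio of the mean CPM was −0.17. It was −0.44 (exact p = 0.0571) without CTR replicate 3 and −0.03 without CTR replicate 1 or CAC replicate 4. Antisense Copg2 covers 20.2% of the 75-base stretches of Mest, and 5 libraries held fractions of reads on Mest.

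Among the nuclear proteins, Peg3 and Ndn pointed in opposite directions. Peg3 (ENSMUSG00000002265.18, minus strand, chr7:6703892-6730431) encodes a zinc finger protein expressed from the paternal allele. Ndn (ENSMUSG00000033585.6, plus strand, chr7:62346569-62350262) encodes necdin, a MAGE family protein from the Prader-Willi region that restrains proliferation. Their promoter sequences are shown because these are the members other than Cdkn1c with an unadjusted p under 0.05. Each is the 250 bases before a RefSeq start in GRCm38.p6, on the strand of the gene, and the Ndn window lies within the longer GENCODE M21 gene given above, with every CG, the dinucleotide that carries DNA methylation, in capitals.
Peg3, chr7:6730420-6730669: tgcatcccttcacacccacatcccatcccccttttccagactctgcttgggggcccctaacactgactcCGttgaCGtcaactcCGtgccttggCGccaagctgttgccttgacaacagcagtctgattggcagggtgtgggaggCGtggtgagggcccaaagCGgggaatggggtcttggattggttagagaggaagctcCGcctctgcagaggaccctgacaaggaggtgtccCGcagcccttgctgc
Ndn, chr7:62348027-62348276: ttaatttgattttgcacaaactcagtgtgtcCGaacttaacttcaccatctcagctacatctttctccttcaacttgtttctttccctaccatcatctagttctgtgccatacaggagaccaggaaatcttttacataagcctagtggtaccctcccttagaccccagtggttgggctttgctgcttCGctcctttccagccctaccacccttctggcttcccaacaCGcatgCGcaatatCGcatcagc

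The Peg3 window holds 8 CG and the Ndn window 5, and CG reads the same on both strands. Of all 32851 such windows in the RefSeq table, 43.0% hold at least 8 CG and 55.6% at least 5, and the median is 6. No methylation was measured, and the sequences are given only to show the genes.

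Peg3 stood at 14.0, 8.52, 13.7 and 14.8 CPM in CTR and at 18.9, 16.0, 35.5 and 21.3 CPM in CAC. The groups stood apart, with CAC replicate 3 far above the rest. CTR averaged 12.8 ± 2.86 CPM and CAC 22.9 ± 8.65 CPM (SD, n = 4 each), and the log2 fold change was 0.90 with a standard error of 0.24 and a 95% interval of 0.39 to 1.40. With an edgeR adjusted p of 0.0885 over all genes, Peg3 did not pass the threshold of 0.05. It passed when genes with low counts were kept (log2 fold change 0.87, edgeR adjusted p = 0.000698). That fit called 351 genes in place of 92. Without CAC replicate 3 the log2 fold change of Peg3 was 0.57 and the edgeR adjusted p was 0.298.

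Ndn stood at 27.7, 32.2, 31.5 and 26.5 CPM in CTR and at 30.3, 18.6, 16.4 and 19.5 CPM in CAC. CAC replicates 2, 3 and 4 lay below every CTR library, and CAC replicate 1 lay within CTR. CTR averaged 29.5 ± 2.83 CPM and CAC 21.2 ± 6.19 CPM (SD, n = 4 each), and the log2 fold change was −0.50 with a standard error of 0.17 and a 95% interval of −0.86 to −0.14. The unadjusted p was 0.00841 and the edgeR adjusted p was 0.192, so Ndn was not called. Without CAC replicate 1 the log2 fold change was −0.69 and the adjusted p was 0.0362.

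Plagl1 (ENSMUSG00000019817.19, plus strand, chr10:13060504-13131694) encodes Zac1, a paternally expressed zinc finger protein that restrains the cell cycle. Its counts were 3, 5, 2 and 7 in CTR and 1, 3, 11 and 5 in CAC. CAC spanned more than the whole range of CTR, with 1.78 ± 1.10 CPM (SD, n = 4) against 1.20 ± 0.31 CPM, and the exact two-sided permutation test gave p = 0.429. The ratio of count rates was 1.58 with a 95% counting interval of 0.788 to 3.22, and the log2 ratio of the mean CPM was 0.57. That log2 ratio was 0.11 (exact p = 0.83) without CAC replicate 3, the highest, and 0.87 (exact p = 0.0286) without CAC replicate 1, the lowest.

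The 2 maternally expressed long noncoding RNAs, H19 and Meg3, are also hosts of miRNAs. H19 (ENSMUSG00000000031.18, minus strand, chr7:142575529-142578143) is strongly expressed in the fetus and in skeletal muscle, and Meg3 (ENSMUSG00000021268.19, plus strand, chr12:109541001-109571726) lies beside Dlk1. Mature miRNAs from RefSeq that lie within these genes are shown because their hosts are the noncoding members. GENCODE M21 also places Mir1906-1 within Meg3, and its sequence is not shown. The capitals mark the seed, bases 2 to 8, and the 4 seeds differ. These libraries measure the host RNA and not the miRNAs.
miR-675-5p in H19: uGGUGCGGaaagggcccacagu
miR-675-3p in H19: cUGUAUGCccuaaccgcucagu
miR-770-5p in Meg3: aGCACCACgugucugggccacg
miR-770-3p in Meg3: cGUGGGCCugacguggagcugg

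H19 varied widely within both groups. Its level was 46.8, 96.9, 122 and 44.5 CPM in CTR and 63.2, 165, 152 and 149 CPM in CAC. CAC replicates 2, 3 and 4 lay above every CTR library, and CAC replicate 1 lay below CTR replicates 2 and 3. CTR averaged 77.6 ± 38.2 CPM and CAC 132 ± 46.4 CPM (SD, n = 4 each), and the log2 fold change was 0.79 with a 95% interval of −0.32 to 1.90 (edgeR adjusted p = 0.548).

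Skeletal muscle markers moved with H19 across the libraries. Their summed level was 1347, 2340, 2885 and 1161 CPM in CTR and 2384, 3551, 4384 and 3924 CPM in CAC, so the libraries with the least H19 in each group also had the least muscle RNA in that group. All 10 muscle markers, Myh4, Tnnt3 and Tnnc2 with the smallest p values among them, had a higher mean level in CAC. Their median log2 fold change was 0.87. Of the 10, 0 were called by edgeR, 1 by DESeq2 and 0 by limma-trend. An unadjusted p under 0.05 in edgeR was found for 4 of the 10, against 12.9% of all genes tested. Per 100 CPM of muscle markers, H19 was 3.47, 4.14, 4.23 and 3.84 CPM in CTR and 2.65, 4.64, 3.46 and 3.78 CPM in CAC. On this scale CAC lay on both sides of CTR, and the log2 ratio of H19 to the muscle sum averaged −4.68 ± 0.13 over the CTR and −4.81 ± 0.33 over the CAC libraries (SD, n = 4 each). This ratio was chosen after H19 and the muscle markers were seen to move together, so it is a description, and the part of muscle RNA in the H19 difference was not tested.

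**Figure D2:**
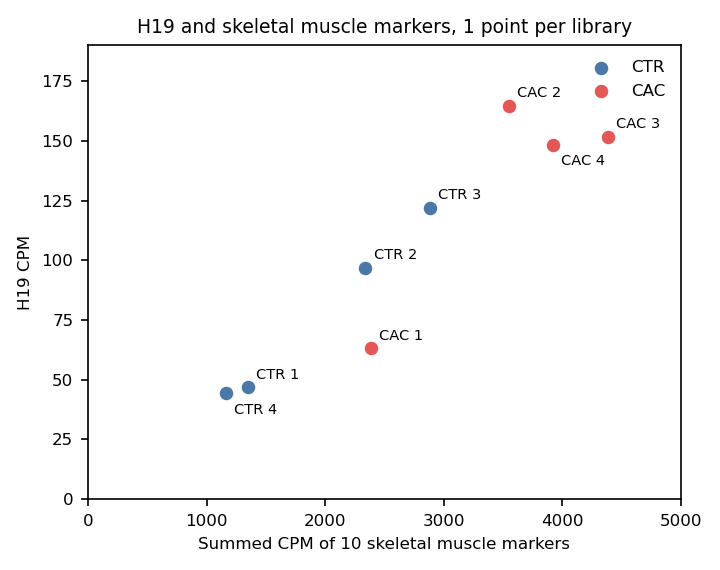
H19 in CPM (vertical axis) against the summed CPM of 10 skeletal muscle markers (horizontal axis), with 1 point per library, CTR in blue and CAC in red. H19 was lowest in CTR replicates 1 and 4, at 46.8 and 44.5 CPM, where the muscle markers were also lowest, and CAC replicate 1 at 63.2 CPM stands among the CTR libraries.

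Meg3 differed least between the groups among the tested members. Its level was 55.8, 61.8, 50.6 and 58.6 CPM in CTR and 51.4, 70.7, 57.7 and 45.0 CPM in CAC. The CAC libraries spanned the CTR range on both sides, and the log2 fold change was −0.02 with a 95% interval of −0.30 to 0.25 (edgeR adjusted p = 0.964).

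The imprinted neighbours that are read from opposite alleles were also compared within each library, as the log2 ratio of their counts with 0.5 added. The ratio of Dlk1 to Meg3 averaged −5.20 ± 0.14 over the CTR and −6.12 ± 0.58 over the CAC libraries (SD, n = 4 each), a difference of −0.92 with an exact two-sided permutation p of 0.0571. In CAC replicate 1 the ratio was −5.26, within the CTR range of −5.40 to −5.11, and the other 3 CAC libraries lay at −6.48 to −6.30. Without that library the difference was −1.21 with an exact p of 0.0286. The exact p was 0.0857 without CTR replicate 1, 3 or 4. With 1 added to the counts in place of 0.5, the difference was −0.72 with an exact p of 0.0857. The ratio of Igf2 to H19 was −5.41 ± 0.46 in CTR and −6.25 ± 0.63 in CAC, a difference of −0.84 with an exact two-sided permutation p of 0.0857. Both ratios rest on few counts of Igf2 and Dlk1, and the muscle markers moved with H19 in the second.

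A list of 57 other imprinted genes was examined, of which 56 were in the table and 25 passed the filter. Of these 25, 0 were called by edgeR, 0 had an unadjusted p under 0.05 and 0 had groups that did not overlap, and 0 were called by DESeq2 or limma-trend. Their mean levels were higher in CAC for 10 and lower for 15, and the median log2 fold change was −0.07, while over all genes tested it was −4.67e-05 with quartiles of −0.17 and 0.17. Usp29, Calcr, Phlda2, Dio3 and Kcnk9 held 0 counts in all 8 libraries. Gnas, which encodes the stimulatory G protein subunit and held the most reads of the list, averaged 574 ± 64.0 CPM over the CTR and 568 ± 73.1 CPM over the CAC libraries (SD, n = 4 each), −0.01 on the log2 scale with a 95% interval of −0.23 to 0.21.

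Nnat, which encodes the small membrane protein neuronatin, was named after its values were seen, for its large spread. Its level was 25.2, 22.1, 44.4 and 50.3 CPM in CTR and 3.24, 3.19, 31.6 and 12.5 CPM in CAC. CAC replicates 1, 2 and 4 lay below every CTR library and CAC replicate 3 lay within CTR. The log2 fold change was −1.30 (standard error 0.68), and with an edgeR adjusted p of 0.498 it was not called.

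**Figure D3:**
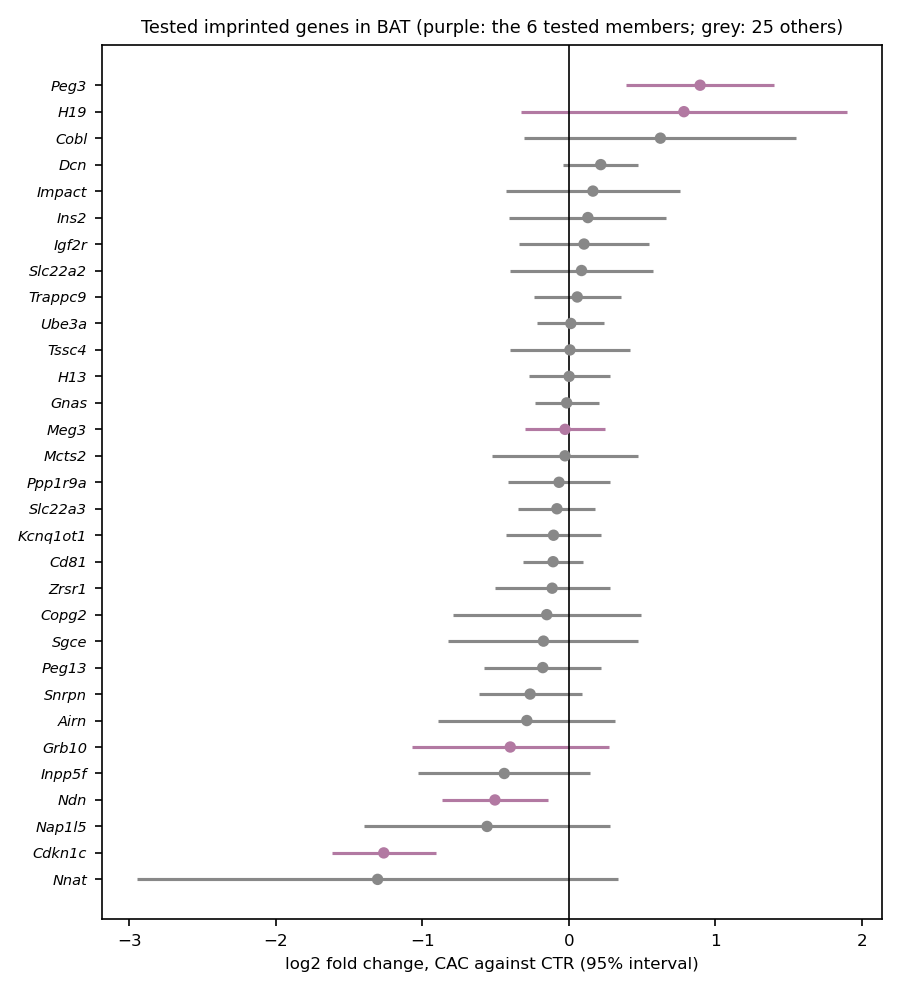
Log2 fold change of CAC against CTR (horizontal axis) for the 31 imprinted genes that passed the filter, in order of size, with lines for the 95% interval. The 6 tested members are in purple and 25 other imprinted genes in grey. The intervals of Cdkn1c, Ndn and Peg3 leave out 0, Cdkn1c having been chosen by this difference, and that of Nnat, from −2.95 to 0.34, is the widest.

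Cdkn1c, H19 and Igf2 lie in neighbouring imprinted domains on distal chromosome 7, of which 20 genes were listed and 10 tested. Kcnq1ot1, the paternal noncoding RNA that silences its domain in cis, averaged 45.5 ± 7.48 CPM over the CTR and 42.1 ± 10.1 CPM over the CAC libraries (SD, n = 4 each), −0.10 on the log2 scale with a 95% interval of −0.43 to 0.22 (edgeR adjusted p = 0.845). Among the other tested genes, Nap1l4 and Tssc4 both had a log2 fold change of 0.01, Osbpl5 of −0.04 and Cd81, a tetraspanin, of −0.11. Dhcr7, an enzyme of cholesterol synthesis, had −0.24, Mrpl23, a mitochondrial ribosomal protein, had −0.27 and Ins2 had 0.13. Apart from Cdkn1c, 0 of the other 9 were called by edgeR, DESeq2 or limma-trend and 0 had an unadjusted p under 0.05. Phlda2 was at 0 counts in all libraries.

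Of 6 other CDK inhibitors 4 were tested, and 0 of the 4 were called by edgeR, DESeq2 or limma-trend. Cdkn1a encodes p21, the Cip/Kip inhibitor that p53 induces, and it stood at 48.9, 51.9, 44.8 and 44.8 CPM in CTR and at 93.5, 58.0, 55.1 and 72.5 CPM in CAC. Every CAC library lay above every CTR library, and the log2 fold change was 0.54 with a standard error of 0.15 and an edgeR adjusted p of 0.0829. It was the only inhibitor of the 4 with an unadjusted p under 0.05, against 12.9% of all genes tested. With no filter on low counts its edgeR adjusted p was 0.0108, in a fit that called 351 genes in place of 92.

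Cdkn1b, which encodes p27Kip1, averaged 17.8 ± 0.624 CPM over the CTR and 17.6 ± 3.67 CPM over the CAC libraries (SD, n = 4 each), −0.01 on the log2 scale with a 95% interval of −0.37 to 0.35. Of the INK4 inhibitors, which bind CDK4 and CDK6, Cdkn2c had a log2 fold change of −0.30 (adjusted p = 0.625) and Cdkn2d of 0.38 (adjusted p = 0.517) in edgeR. Cdkn2a, the gene of p16 and p19Arf, held 0 counts in all 8 libraries, which allows up to 0.661 to 1.62 CPM by library. Cdkn2b held 2, 2, 4 and 3 counts in CTR and 2, 0, 1 and 1 in CAC and was below the filter.

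**Figure D4:**
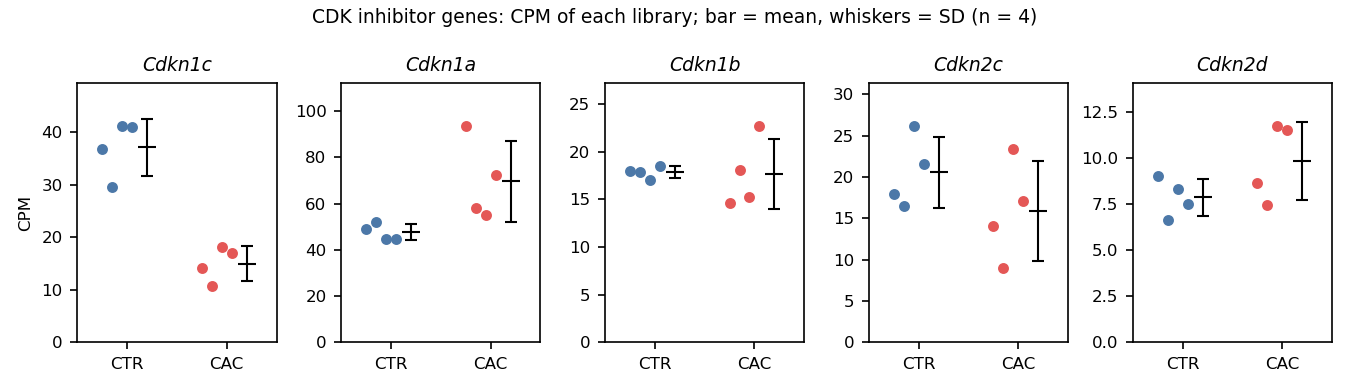
Level in CPM (vertical axis, own scale for each gene) of Cdkn1c and the other 4 tested CDK inhibitor genes in the 4 CTR (blue) and 4 CAC (red) libraries, with the mean (bar) and SD (whiskers). Cdkn1c lies lower and Cdkn1a higher in every CAC library, and the groups overlap for Cdkn1b, Cdkn2c and Cdkn2d.

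Of the 18 G1 cyclins, CDKs and RB and E2F family genes, 12 were tested and 0 were called by edgeR, DESeq2 or limma-trend. An unadjusted p under 0.05 was found for 1 of the 12, against 12.9% of all genes tested. The 12 genes had a median log2 fold change of −0.07, with 3 higher and 9 lower. The smallest p values were those of the kinase gene Cdk6 (log2 fold change −0.39, adjusted p = 0.347), the cyclin gene Ccna2 (0.48, 0.403) and Rb1, the retinoblastoma gene (−0.34, 0.419).

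The partners of Igf2 and Grb10 were read from a list of 18 genes of IGF signalling, of which 13 were tested and 0 called by the same tools. Of the 13, 2 had an unadjusted p under 0.05, against 12.9% of all genes tested. The mean level was higher in CAC for 11 and lower for 2, and the median log2 fold change was 0.14. Irs2, a docking protein of the insulin and IGF receptors, stood at 7.56, 15.7, 12.0 and 10.6 CPM in CTR and at 49.2, 17.5, 16.1 and 52.3 CPM in CAC. CAC replicates 1 and 4 stood far above the rest and replicates 2 and 3 just above the highest CTR library. Its log2 fold change was 1.53 (standard error 0.50, edgeR adjusted p = 0.274). Nedd4, a ubiquitin ligase that Grb10 binds, had a log2 fold change of 0.25 (adjusted p = 0.336), and Irs1 of −0.41 (adjusted p = 0.570). Igf2r, the imprinted receptor that clears Igf2, was 11.6 ± 2.34 CPM (SD, n = 4) in CTR and 12.0 ± 2.41 CPM in CAC, and it was named after its values were seen.

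Genes that follow fat mass as Mest does were read from a list of 7, of which 4 were tested and 0 called by edgeR, DESeq2 or limma-trend, with 0 at an unadjusted p under 0.05. Cav1, which encodes the caveolar coat protein, had a log2 fold change of −0.23 (adjusted p = 0.440). Npr3, the clearance receptor of natriuretic peptides, had −0.54 (adjusted p = 0.440), and without CAC replicate 1 it was −0.92 with an adjusted p of 0.00708. Cav2 had −0.40 (adjusted p = 0.472), and the fourth tested gene, Cavin1, had a higher mean in CAC, at 0.14 (adjusted p = 0.639), so 3 were lower and 1 higher. Lep, which encodes leptin and was named after its values were seen, held 15, 17, 13 and 5 counts in CTR and 2, 0, 5 and 1 in CAC, below the filter. CAC replicates 1, 2 and 4 lay below every CTR library and CAC replicate 3 above CTR replicate 4, with 4.11 ± 2.04 CPM (SD, n = 4) in CTR and 0.724 ± 0.669 CPM in CAC (exact two-sided permutation p = 0.0571). In the fit without a filter on low counts its log2 fold change was −2.25, with an edgeR adjusted p of 0.00381. That fit called 351 genes in place of 92. The other 2 genes below the filter overlapped between the groups, Sfrp5 at 0.431 ± 0.347 CPM (SD, n = 4) in CTR and 1.24 ± 1.15 CPM in CAC and Bmp3 at 0.681 ± 0.347 and 0.747 ± 0.737 CPM.

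The genes whose pattern over the 8 libraries was most like that of Cdkn1c were found by the root mean square difference of log2 CPM, each gene centred on its own mean, among the 6284 genes whose mean level reached 10 CPM. In order they were Amotl2 (0.331), 9630013D21Rik (0.333), Plekhh3 (0.342), 1190007I07Rik (0.364) and Brox (0.366). Amotl2, an angiomotin family scaffold of cell junctions, was 19.1 ± 5.90 CPM (SD, n = 4) in CTR and 9.09 ± 3.37 CPM in CAC. Plekhh3 was 16.3 ± 1.83 CPM in CTR and 8.94 ± 1.48 CPM in CAC. The likeness is a description over 8 libraries that share the group difference.

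**Figure D5:**
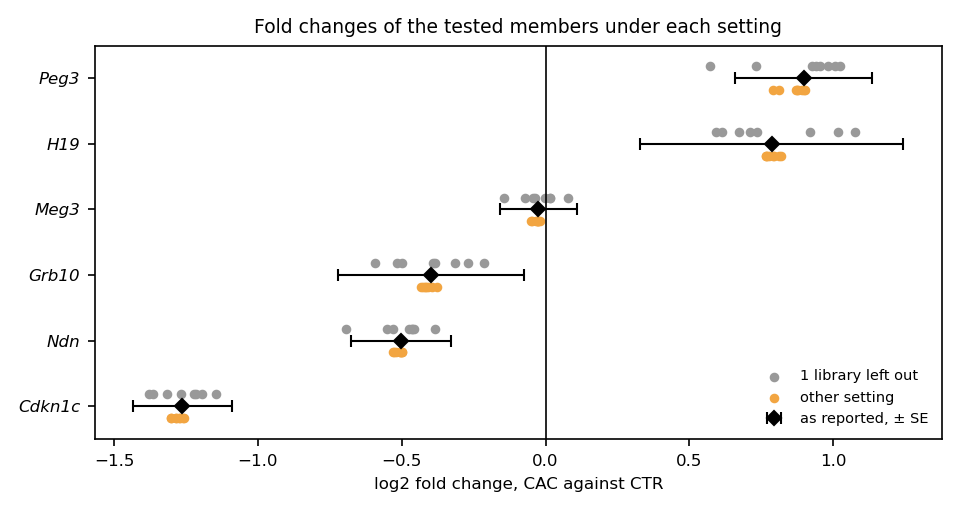
Log2 fold change of CAC against CTR (horizontal axis) of the 6 tested members under each setting: as reported with its standard error (black), under other tools, scalings and filters (orange) and with each library left out (grey). Cdkn1c stays between −1.38 and −1.15, H19 spans 0.59 to 1.08 and Peg3 0.57 to 1.02, and the values of Meg3 lie on both sides of 0.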

How the data were processed

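RNA from the BAT of 8 mice was sequenced by single-end reads of 75 bases, with 1 library per mouse and 4 per group, and groups were taken from the labels. The authors checked reads with FastQC 0.11.9, aligned them with HISAT2 2.2.1 to mm10 (the same assembly as GRCm38) and counted them with featureCounts and its multi-mapping option, and the strand setting is not given in the sources used here. The deposited table holds expected counts for 56953 genes, not normalized, and 25.1% to 28.4% of nonzero values per library are fractions. The authors also deposited a signal, their counts divided by DESeq2 size factors. Counts of overlapping or duplicated genes are uncertain where they hold fractions. Of the gene identifiers, 91.4% match GENCODE M21 without the version and 0.0615% with it, so coordinates come from that annotation by identifier without version. Promoter and miRNA sequences are from RefSeq (GRCm38.p6), and 8 of the 10 genes matched the promoter table.

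Counts were rounded and tested with edgeR 4.0.16 in R 4.3.3 (filterByExpr, TMM, CAC against CTR by the quasi-likelihood test with robust fitting, no covariate), with Benjamini-Hochberg adjustment over all 9876 genes tested and a threshold of 0.05. This called 92 genes, 73 higher and 19 lower in CAC. Genes below the filter were compared by the exact two-sided permutation test of their CPM, for which 0.0286 is the smallest p, and by the exact interval of the ratio of summed counts. The procedure was tested on simulated data. Precision follows from 1823167 to 4827956 counts per library. Each library is a separate mouse.

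The members and gene lists were chosen with earlier results of these data known. Named genes are all members, the other imprinted gene with the highest mean CPM, and from each further gene list the called genes and the 3 with the smallest p, all tested inhibitors, all tested genes of the chromosome 7 domains and the 5 genes most like Cdkn1c. Cell type markers and other genes were named after their values were seen, among them the called markers and some, not all, of those that stood apart. Alternatives were DESeq2 1.42.0, limma-trend in limma 3.58.1 on log2 of the deposited signal plus 1, other scalings, the removal of the filter, a filter of 10 counts per library, the replicate block, a pseudocount of 1 for ratios and each library left out. H19 relative to muscle markers was added once the values were known. Summaries used Python 3.11.15 with scipy 1.17.1, pandas 2.3.3 and numpy 2.4.6, and plots matplotlib 3.10.9.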

Additional observations from a re-analysis of the deposited data

Results flagged for a closer look

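In 56 groups of 4 libraries examined, 4 held a library far from the other 3 by Dixon's test, and chance gives about 1 in 20 groups, or 2.8 of 56. H19 stood at 63.2 CPM in CAC replicate 1, whereas the other CAC libraries held 149 to 165 CPM. Mest stood at 0.415 CPM in CTR replicate 3, whereas the other CTR libraries held 1.32 to 1.44 CPM, and this value is 1 count. The summed Schwann cell and nerve markers were 445 CPM in CAC replicate 1 and 294 to 309 CPM in the other CAC libraries. The summed macrophage markers were 209 CPM in CTR replicate 3 and 233 to 235 CPM in the other CTR libraries.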

How the results depend on the processing

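Cdkn1c kept its direction in all 16 alternatives, with log2 fold changes of −1.38 to −1.15, as did H19 (0.59 to 1.08), Peg3 (0.57 to 1.02), Ndn (−0.69 to −0.38) and, in its 15, Grb10 (−0.59 to −0.21). The scalings moved the median over all genes by less than 0.03. The count of genes called, 92, was 351 with no filter on low counts, and with 1 library left out it lay between 42, without CTR replicate 1, and 135, without CTR replicate 3, with 60 without CAC replicate 3. Of the 9 members other than Cdkn1c, 1 was called in place of 0 with no filter (Peg3, 0.87, adjusted p = 0.000698), and 0 to 1 with 1 library left out, the 1 being Ndn without CAC replicate 1 (−0.69, adjusted p = 0.0362). The lists of inhibitors, cyclins, IGF signalling and fat mass gave 3 calls with no filter (Cdkn1a, Lep and Npr3) and 0 to 1 with 1 library left out, namely Lep without CTR replicate 4 (adjusted p = 0.0162) and Npr3 without CAC replicate 1. The other imprinted genes gave 0 calls in all 16 alternatives. The cause of these shifts was not tested.

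The replicate numbers name mice and do not pair them: same-numbered libraries deviated together with correlations of only −0.02 to 0.04, and not every library correlated best with its own number. With the replicate number as a block, 140 genes were called, and Peg3 was the 1 member other than Cdkn1c that was called (0.81, adjusted p = 0.0374).

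The sign of Meg3 turned when CTR replicate 2 (0.01), CAC replicate 1 (0.01) or replicate 4 of CAC (0.078) was left out, and its range was −0.14 to 0.078. The log2 ratio of mean Igf2 levels turned to 0.12 without CTR replicate 2 and to 0.05 without CAC replicate 1 or 2, and ranged from −0.39 to 0.12. Relative to the muscle markers, the log2 difference of H19 turned to −0.13. For Dlk1, the log2 difference was −1.19 both with no filter in edgeR (unadjusted p = 0.107) and in DESeq2 (unadjusted p = 0.190, no adjusted p given), and with 1 library left out it ranged from −1.51 to −0.92, the exact p rising to 0.0571 without any 1 of the CTR libraries. Plagl1 ranged from 0.11 to 0.87 and the ratio of Dlk1 to Meg3 from −1.21 to −0.80 with 1 library left out. Depth limits what can be said of Mest, Plagl1, Igf2 and Dlk1, with 1 to 11 counts per library.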
